A study of Homo sapiens with 18 samples.

Results

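The JAK-STAT genes followed here are STAT2, STAT3, STAT4, STAT5A, STAT5B and STAT6, which encode signal transducers and activators of transcription, and SOCS1, SOCS3 and CISH, which encode feedback inhibitors of cytokine signaling. They were picked by symbol, 9 of the 56609 symbols in the table of gene counts. All 9 passed the filter on low values (a summed count of 10 or more over the 18 libraries) and were tested, as were 31872 genes in all. RNA came from HG3, MEC2 and PCL12, EBV-positive cell lines of chronic lymphocytic leukemia (CLL) with unmutated IGHV genes in HG3 and PCL12 and mutated ones in MEC2. Cells of each line were either stimulated for 4 h with 2.5 μg/ml CpG-ODN2006, a class B oligonucleotide with unmethylated CpG motifs that activates the endosomal DNA receptor TLR9, or left unstimulated, with 3 replicates of each of the 6 groups. Every group is thus an established line kept in culture, without the other cells of a patient's blood or lymph node. The labels number the replicates without saying whether they were separate cultures, so the P values measure the spread between these samples, which may be in part technical.

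STAT proteins wait in the cytoplasm until a cytokine or interferon receptor, through its bound Janus kinases, phosphorylates them. They then form dimers, enter the nucleus and bind their target genes, among which are the SOCS genes, whose proteins attach to receptors or kinases and damp the signal. In B cells STAT6 carries IL-4 signals and STAT3 those of IL-6, IL-10 and IL-21, while TLR9 itself signals through MYD88 and reaches STATs mostly by way of the cytokines and interferons that the cells release. The counts give the mRNA of these genes and not the phosphorylation that activates the proteins.

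CISH, a classic STAT5 target, is the gene of the group whose promoter holds the most matches to the sequence that STAT dimers bind. RefSeq promoters on GRCh38.p14, from 250 bases before to 50 bases after the start of transcription, were at hand for all 9 genes (13 entries), and the letters TTCNNNGAA, which read the same on both strands, were found in 1 of the entries, against 7.66% of 35116 promoters in all. In CISH there were 4 matches, 241, 230, 129 and 112 bases before the start, in capitals below. The promoter lies at chr3:50611725-50612024 on the minus strand.

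CISH promoter: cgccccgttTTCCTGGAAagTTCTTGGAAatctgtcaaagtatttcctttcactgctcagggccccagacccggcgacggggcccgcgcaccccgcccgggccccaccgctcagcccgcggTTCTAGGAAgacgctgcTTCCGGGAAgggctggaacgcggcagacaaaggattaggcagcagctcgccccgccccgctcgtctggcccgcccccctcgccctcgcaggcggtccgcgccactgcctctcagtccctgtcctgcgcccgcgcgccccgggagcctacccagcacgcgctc

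The related letters TTC and GAA with 4 bases of any kind between them, a spacing STAT6 prefers, were in 6.44% of all promoters and in 1 entry of STAT5A (TTCCTCTGAA, 229 bases before the start). An NF-κB-like sequence, GGGA and CC with 4 bases between them, on either strand, was in 25.6% of all promoters and in 5 of the 13 entries, 1 each of STAT4, STAT5A, STAT6, SOCS1 and SOCS3. The promoters of STAT2, STAT3 and STAT5B held none of these letters. The SOCS3 entries, chr17:78360876-78361175 and chr17:78359618-78359917, do not cover the start of the gene in GENCODE, 78360077. The sequence around that start was therefore not searched. The entries of STAT5B and STAT6 also lie away from the GENCODE start of their gene. A match is a description of the sequence and says nothing of binding in these cells.

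On GRCh38 with GENCODE release 44, STAT5B (chr17:42199176-42288633), STAT5A (chr17:42287547-42311943) and STAT3 (chr17:42313324-42388540) are neighbours. STAT5A is on the plus strand and overlaps STAT5B, on the minus strand, by 1087 bases, and it ends 1380 bases before STAT3. STAT2 (chr12:56341597-56360203), STAT6 (chr12:57095408-57132139), STAT4 (chr2:191029576-191151596), SOCS3 (chr17:78356778-78360077), CISH (chr3:50606489-50611774) and SOCS1 (chr16:11254417-11256204) are all on the minus strand. SOCS1 lies with all of its 1788 bases inside RMI2 on the opposite strand, and STAT6 shares 3657 bases with LRP1 and CISH 255 bases with MAPKAPK3 in the same way. The strand setting of the counting is not given in the sources used here, so reads of SOCS1 and RMI2 may not have been told apart. STAT5A and STAT5B are near copies of each other, and 5.26% of the 100-base windows in the exons of STAT5A also occur in STAT5B, so a small part of their reads could belong to either.

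Total counts were 20382943 to 67308932 per library (median 34187429.5), and 3 counts were worth 0.0429 to 0.155 CPM (counts scaled to library size with TMM factors), the unit of the levels below. Replicate 2 of unstimulated HG3 and replicate 2 of stimulated MEC2 stood apart with 20.2% and 19.7% of mitochondrial counts, where the remaining 16 libraries had 2.82% to 9.28%. A set of 45 genes was chosen whose levels reached 20 CPM (here by library totals) in all MEC2 libraries while PCL12 replicate 1 held no more than 10% of the MEC2 mean, so their low median share of at most 2.36% in that replicate is fixed by the choice. In PCL12 replicates 2 and 3, which the choice did not use, their median level was 29.1% to 31.3% of that in MEC2, and in the HG3 libraries it was 6.61% to 14.2%. The called differences of PCL12 from another line that are named below are also given without replicates 2 and 3. All 6 B-cell markers were above 1 CPM on average in every group (summed level 2115 to 3673 CPM in a library). CD5, a defining CLL antigen, averaged 44.7 CPM in unstimulated HG3 and 0.0285 and 0.896 CPM in unstimulated MEC2 and PCL12. FCER2, the other CLL surface marker listed, averaged 2134, 422 and 576 CPM in unstimulated HG3, MEC2 and PCL12. Of the 5 T-cell markers, which summed to 35.8 to 141 CPM, the T-cell receptor component CD3D had at most 1 count in any library, while TRAC, the constant region of the receptor's alpha chain, averaged 50.9 to 108 CPM in a group. The 4 NK-cell markers summed to at most 10.8 CPM and the 5 monocyte markers to at most 2.53 CPM in a library, and the part of such cells in the results was not tested.

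In edgeR without pairing of the replicates, none of the 9 genes was a differentially expressed gene (DEG) after CpG in any of the 3 lines. A DEG had a nominal P value under 0.01 with |Log2FC| ≥ 1. Of all tested genes 0.496% met this in HG3, 0.251% in MEC2 and 0.116% in PCL12. With the pairing, SOCS3 met it in MEC2 in edgeR, as 0.555% of all genes did, but not in limma-voom. Counts in other settings are given below. STAT5A was higher in 8 of the 9 replicate pairs and SOCS3 in 7, STAT2 was lower in 7, and each of the other 6 genes was higher in 4 to 6 pairs. In unstimulated cells STAT5A, STAT5B, SOCS1 and SOCS3 were lower in MEC2 than in HG3, STAT5B and SOCS1 also in PCL12.

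**Figure D1:**
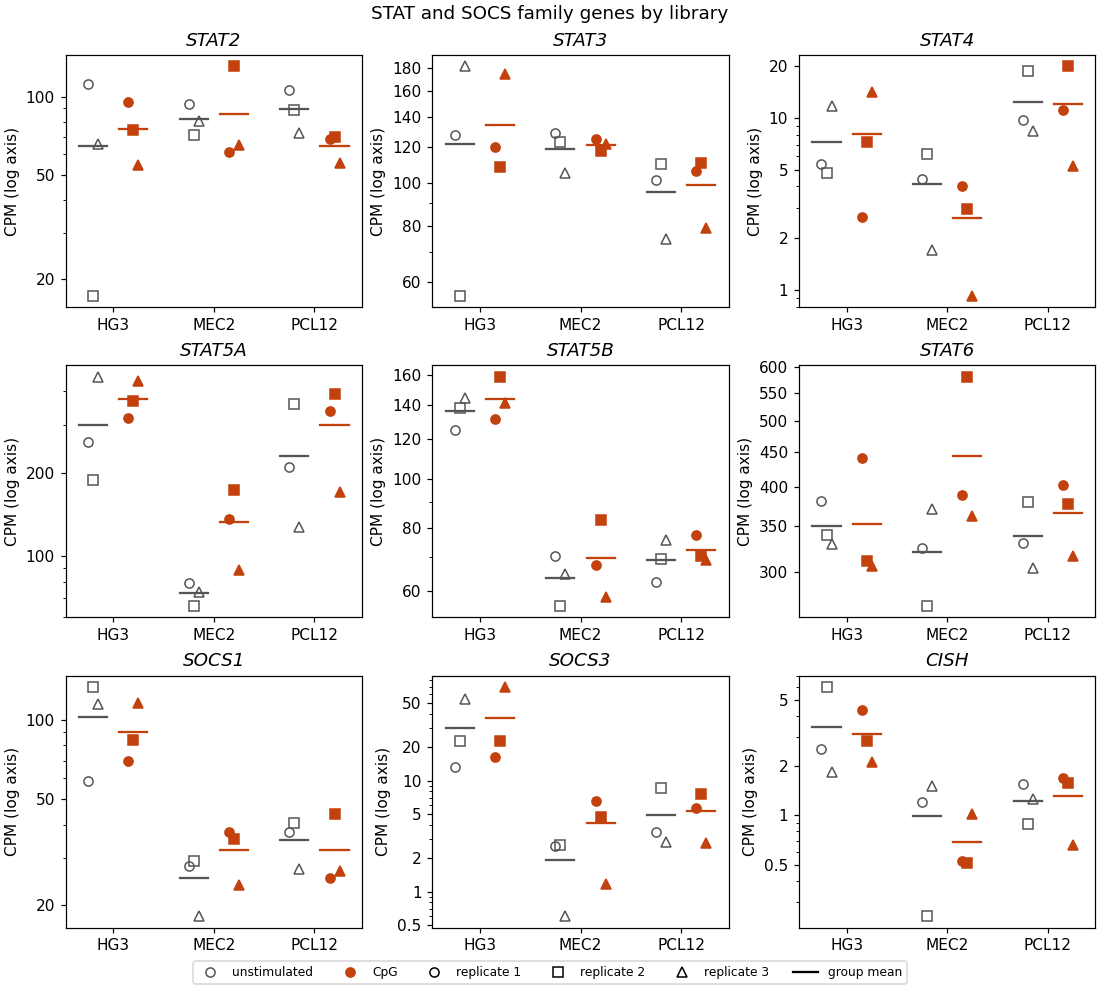
Level of each gene in each library in CPM, on log axes whose range differs from panel to panel; open grey symbols are unstimulated and filled orange symbols CpG-stimulated libraries, the symbol shape is the replicate and the line is the mean of 3 libraries. In MEC2 the 3 stimulated libraries lie above the 3 unstimulated ones for STAT5A. For STAT5A, STAT5B, SOCS1, SOCS3 and CISH all 6 HG3 libraries lie above the 6 MEC2 libraries, and the share of all genes separated in this way was not counted.

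STAT5A, which carries signals of IL-2, IL-7 and other cytokines, was higher after CpG in 8 of 9 pairs. Levels are given here and below in the order of replicates 1, 2 and 3, with the unstimulated libraries of a line before the stimulated ones. In MEC2 it was at 79.8, 65.6 and 74.0 CPM in the unstimulated libraries and at 136, 174 and 88.7 CPM after CpG. The lowest stimulated library was above the highest unstimulated one, and STAT5A was the only one of the 9 genes without overlap in MEC2, where 4.72% of all tested genes had none. The means were 133 ± 42.5 CPM (SD, n = 3) and 73.1 ± 7.18 CPM (SD, n = 3), a Log2FC of 0.86 (SE 0.36, 95% confidence interval 0.13 to 1.60, adjusted p = 1). This was the only P value under 0.05 before adjustment among the 9 genes in MEC2.

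In HG3, STAT5A was at 259.6, 189.6 and 451 CPM in unstimulated and 318, 367 and 433 CPM in stimulated cells, and in PCL12 at 211, 358 and 127 and 339, 389 and 170.5 CPM. The groups overlapped in both lines, with a Log2FC of 0.31 (SE 0.35) in HG3 and 0.37 (SE 0.35) in PCL12, and 95% confidence intervals of -0.41 to 1.04 and -0.36 to 1.10. With each library left out the value ran from 0.10 without unstimulated replicate 2 to 0.73 without unstimulated replicate 3 in HG3, and from 0.07 without unstimulated replicate 3 to 0.83 (adjusted p = 1) without unstimulated replicate 2 in PCL12. In PCL12 the 2 libraries of replicate 2 were the highest and those of replicate 3 the lowest, so the spread between replicates exceeded the step within each pair, which was 0.69, 0.12 and 0.42 on the log2 scale. The corresponding pair ratios were 0.29, 0.95 and -0.06 in HG3 and 0.77, 1.40 and 0.26 in MEC2, a mean of 0.54 ± 0.46 (SD, n = 9 pairs) over the lines.

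Averaged over the 3 lines, STAT5A had a Log2FC of 0.51 (SE 0.20, 95% confidence interval 0.09 to 0.94), with an adjusted p of 1 by edgeR. Since the description of the series pairs the stimulated and unstimulated sample of each replicate, a fit with the replicate of each line as a block was also made. With this pairing the averaged Log2FC was 0.54 with an adjusted p of 0.00319, in a fit where 0.555% of all genes passed, and in MEC2 alone it was 0.81 with an adjusted p of 0.0347 (0.333% of all genes passed), under the |Log2FC| of a DEG. In limma-voom with the same block the adjusted p was 0.156 in the average and 0.589 in MEC2. The libraries with many mitochondrial counts belong to the pair with the largest ratio in HG3 and in MEC2, and without these 2 libraries the Log2FC was 0.35 in the average over lines, 0.62 in MEC2 and 0.07 in HG3, and neither the average nor MEC2 was any longer under an unadjusted P of 0.05. Without PCL12 replicates 2 and 3 the averaged value was 0.63, and the 1 pair left in PCL12 gave 0.69.

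STAT5B, the near copy of STAT5A, had no common direction after CpG. It was at 125, 138 and 144 CPM in unstimulated and 131, 159 and 141 CPM in stimulated HG3, and at 70.4, 56.1 and 64.9 and 67.5, 83.0 and 58.5 CPM in MEC2. In PCL12 it was at 62.7, 69.3 and 75.8 and 77.6, 70.5 and 69.2 CPM. The groups overlapped in every line, 5 of the 9 pairs were higher after CpG, and the averaged Log2FC was 0.09 (95% confidence interval -0.16 to 0.34).

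STAT6, the mediator of IL-4 and IL-13 signals, was at 326, 267 and 371 CPM in unstimulated and 389, 581 and 363 CPM in stimulated MEC2. The highest value was that of stimulated replicate 2, 1 of the libraries with many mitochondrial counts, and the groups overlapped (Log2FC 0.47, SE 0.24, 95% confidence interval -0.02 to 0.96). Without these libraries the Log2FC was 0.23. In HG3 the levels were 381, 339.6 and 330.0 CPM without and 441, 311 and 306 CPM with CpG, in PCL12 331, 380.0 and 304 and 403, 378 and 316 CPM. In both lines the groups overlapped, with Log2FC values of 0.01 and 0.11.

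STAT3, which carries IL-6 and IL-10 signals, was at 129, 123 and 105 CPM in unstimulated and 125, 118 and 122 CPM in stimulated MEC2. It was at 101, 110.2 and 75.0 and 106, 111 and 79.3 CPM in PCL12 and at 128, 56.1 and 181 and 119.8, 108 and 174 CPM in HG3. The groups overlapped in all lines. The averaged Log2FC was 0.07, with a 95% confidence interval of -0.28 to 0.42, and unstimulated HG3 replicate 2, rich in mitochondrial counts, held the lowest level of all 18 libraries.

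STAT2, a part of the complex that type I interferons activate, was lower after CpG in all 3 pairs of PCL12. It was at 106, 89.0 and 72.5 CPM in unstimulated and 68.5, 70.1 and 55.7 CPM in stimulated cells, without overlap between the groups, as for 4.55% of all genes in that line. The Log2FC was -0.46 (SE 0.43, 95% confidence interval -1.36 to 0.44, adjusted p = 1). Replicate 1 alone had a pair ratio of -0.63. In MEC2, STAT2 was at 93.6, 71.2 and 80.7 CPM and, after CpG, at 61.3, 131 and 65.4 CPM, and in HG3 at 111, 17.2 and 65.6 and 95.7, 74.1 and 54.8 CPM. In those lines 2 of 3 pairs were lower and 1 was higher, and the higher pair held the library with many mitochondrial counts in each line (pair ratios of 0.88 in MEC2 and 2.11 in HG3). The Log2FC was 0.07 in MEC2, 0.21 in HG3 and -0.06 in the average over lines, and without these 2 libraries it turned to -0.37 in MEC2 and -0.24 in HG3 and was -0.36 in the average (adjusted p = 1), the last under an unadjusted P of 0.05. No gene of the group was without overlap in HG3, where 3.72% of all genes were.

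STAT4, known from IL-12 signaling in T and NK cells, was at 5.38, 4.80 and 11.7 CPM in unstimulated and 2.67, 7.26 and 14.2 CPM in stimulated HG3, and at 4.44, 6.17 and 1.71 and 4.02, 2.96 and 0.928 CPM in MEC2. In PCL12 the values were 9.75, 18.7 and 8.38 and 11.1, 19.9 and 5.25 CPM. STAT4 was lower after CpG in all 3 pairs of MEC2, but the groups overlapped in every line, and the Log2FC in MEC2 was -0.62 (SE 0.62, 95% confidence interval -1.92 to 0.67).

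**Figure D2:**
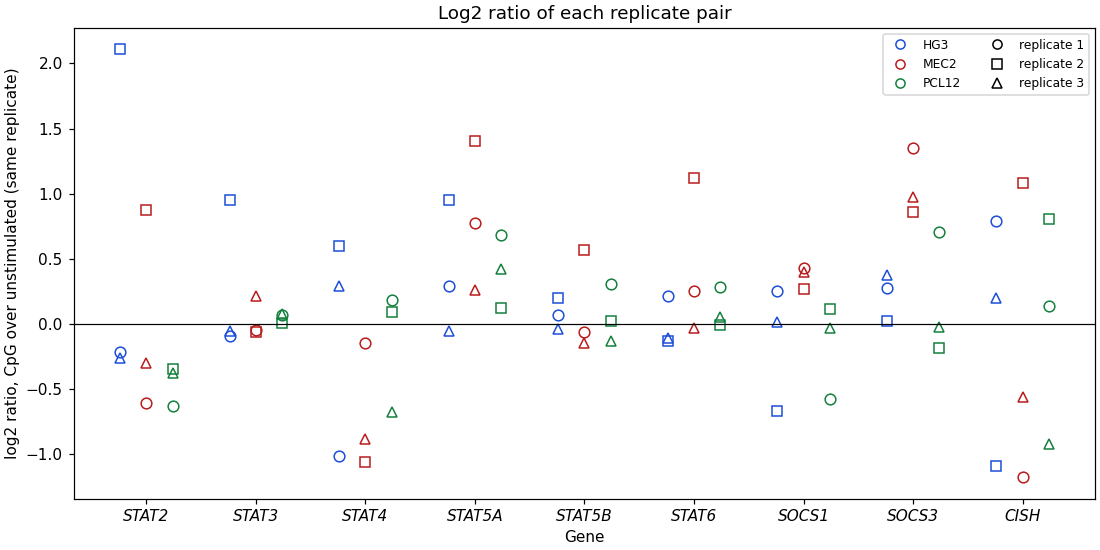
Log2 ratio of the CPM in the stimulated to that in the unstimulated library of the same replicate, for each gene (columns of points, from left to right HG3 in blue, MEC2 in red and PCL12 in green; circles, squares and triangles are replicates 1, 2 and 3). STAT5A is above 0 in 8 of 9 pairs and SOCS3 in 7 of 9, and the highest point of STAT2, 2.11, belongs to HG3 replicate 2.

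SOCS3, an inhibitor of receptors that use the gp130 chain, was higher after CpG in all 3 pairs of MEC2 and of HG3. In MEC2 it was at 2.55, 2.61 and 0.598 CPM in the unstimulated libraries and 6.50, 4.73 and 1.17 CPM in the stimulated ones, so that both libraries of replicate 3 were low and the groups overlapped. The pair ratios were 1.35, 0.86 and 0.97 on the log2 scale. The Log2FC was 1.13 (SE 0.78, 95% confidence interval -0.54 to 2.79, adjusted p = 1). In the fit paired by replicate it was 1.07 (adjusted p = 0.108) and met the definition of a DEG, as 0.555% of all genes did in that fit, but not in limma-voom with the same block (1.10, adjusted p = 0.998).

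In HG3, SOCS3 was at 13.3, 22.5 and 53.8 CPM without and 16.2, 22.9 and 69.8 CPM with CpG, and both libraries of replicate 3 were high. The pair ratios of 0.28, 0.03 and 0.37 were small beside this spread (Log2FC 0.28, SE 0.74). In PCL12 it was at 3.46, 8.56 and 2.79 and 5.65, 7.54 and 2.74 CPM, with 1 pair of 3 higher and a Log2FC of 0.11 (SE 0.75). Averaged over the lines the Log2FC was 0.50 (SE 0.44, 95% confidence interval -0.43 to 1.44). The step in MEC2 exceeded that in HG3 by 0.85 (SE 1.07) and that in PCL12 by 1.02 (SE 1.08), and with the pairing by 0.84 and 0.90, with an adjusted p of 1 in all of these tests. Without PCL12 replicates 2 and 3 the second of these was 0.44.

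SOCS1, which inhibits Janus kinases directly and is induced by interferons, was higher after CpG in all 3 pairs of MEC2. There it was at 28.1, 29.4 and 18.1 CPM in unstimulated and 37.7, 35.4 and 23.8 CPM in stimulated cells, with pair ratios of 0.43, 0.27 and 0.40. The groups overlapped, since both libraries of replicate 3 were low, and the Log2FC was 0.36 (SE 0.31, 95% confidence interval -0.27 to 0.99). It was 0.17 without unstimulated replicate 3 and 0.54 without stimulated replicate 3. In HG3 the levels were 58.7, 133 and 115 CPM and 69.7, 83.6 and 116 CPM (Log2FC -0.19, SE 0.31), and in PCL12 37.6, 40.8 and 27.4 and 25.2, 44.2 and 26.9 CPM (Log2FC -0.14, SE 0.31). Neither line had a common direction over its pairs, and in HG3 the value turned to 0.05 without the libraries rich in mitochondrial counts.

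CISH, which competes with STAT5 for its docking sites on receptors, stood at a few CPM at most. It was at 2.51, 5.98 and 1.84 CPM in unstimulated and 4.34, 2.81 and 2.11 CPM in stimulated HG3, at 1.20, 0.245 and 1.51 and 0.532, 0.517 and 1.03 CPM in MEC2, and at 1.54, 0.891 and 1.25 and 1.69, 1.56 and 0.660 CPM in PCL12. Of the 9 pairs 5 were higher and 4 lower, and no line had a common direction. The averaged Log2FC was -0.20 (SE 0.39, adjusted p = 1), and 0.08 without the libraries rich in mitochondrial counts.

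By edgeR's quasi-likelihood test without pairing, 0 of the 9 genes met the DEG definition after CpG in each line. The shares of all tested genes were 0.496% (HG3), 0.251% (MEC2) and 0.116% (PCL12). In MEC2 other settings of edgeR gave a call. SOCS3 met the definition with the replicate block, as 0.555% of all genes did, but not in limma-voom with this block. It also met it without a filter on low counts, and STAT5A did without stimulated MEC2 replicate 3. DESeq2 and limma-voom without pairing gave 0 in HG3, MEC2 and PCL12. With a P value under 0.05 there were 0, 1 (STAT5A) and 0 in these lines, against 3.73%, 2.46% and 2.09% of all genes. At an adjusted p under 0.05, which 0.00314% of all genes passed in HG3, 0.00314% in MEC2, 0% in PCL12 and 0.00941% in the average over lines, no gene of the group was found, and 1 (STAT5A) had a P value under 0.05 in the average, as 4.04% of all genes did. The median Log2FC over the 9 genes was 0.14 in HG3, 0.13 in MEC2 and 0.06 in PCL12, beside 0, 0 and 0.02 over all genes tested.

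For the difference in the CpG response between lines, 0 of the 9 genes had an adjusted p under 0.05 and 0 a P under 0.05 in the edgeR fit without pairing in each of the 3 comparisons (4.10%, 4.16% and 3.23% of all genes had such a P for MEC2 against HG3, PCL12 against HG3 and MEC2 against PCL12), and 0 had an adjusted p under 0.05 by DESeq2 and limma-voom. At the adjusted threshold 0% of all genes passed for MEC2 against HG3, 0.00314% for PCL12 against HG3 and 0% for MEC2 against PCL12. With the replicate block in edgeR again none passed an adjusted p of 0.05, but 1 gene in each comparison had a P under 0.05, SOCS3 for MEC2 against HG3 and against PCL12 (above) and STAT2 for PCL12 against HG3 (-0.94, adjusted p = 0.550), beside 3.53%, 1.36% and 2.39% of all genes in these comparisons. For STAT5A the step in MEC2 minus that in HG3 was 0.55, with a 95% confidence interval of -0.48 to 1.58.

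Between the unstimulated lines, SOCS1, SOCS3, STAT5A and STAT5B were lower in MEC2 than in HG3, 4 of the 9 genes at an adjusted p under 0.05 beside 9.78% of all genes. SOCS3 was at 13.3, 22.5 and 53.8 CPM in HG3 and at 2.55, 2.61 and 0.598 CPM in MEC2, so that the lowest HG3 library was above the highest MEC2 library. The means were 29.9 ± 21.2 CPM (SD, n = 3) and 1.92 ± 1.15 CPM (SD, n = 3), 15.6-fold lower in MEC2 in the fit (log2 difference -3.97, SE 0.85, adjusted p = 0.00613). In bulk RNA, fewer cells with a transcript and less of it per cell cannot be told apart.

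SOCS1 was at 58.7, 133 and 115 CPM in unstimulated HG3 and at 28.1, 29.4 and 18.1 CPM in unstimulated MEC2, also without overlap. The log2 difference was -2.02 (SE 0.32, adjusted p = 6.53e-05). In PCL12 it was at 37.6, 40.8 and 27.4 CPM, below every HG3 library too (log2 difference -1.53, SE 0.31, adjusted p = 0.00131). The levels of MEC2 and PCL12 did not differ beyond their spread (-0.49, adjusted p = 0.570), so the order was HG3 above PCL12 and MEC2. RMI2, which encloses SOCS1 on the other strand, had log2 differences of -0.54 (adjusted p = 0.279) for MEC2 and 0.59 (adjusted p = 0.233) for PCL12 against HG3.

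STAT5B was at 136 ± 9.90 CPM (SD, n = 3) in unstimulated HG3, 63.8 ± 7.19 CPM (SD, n = 3) in MEC2 and 69.3 ± 6.52 CPM (SD, n = 3) in PCL12, and the 6 HG3 libraries, stimulated or not, were all above the 12 libraries of the other lines. The log2 difference from HG3 was -1.09 (SE 0.21, adjusted p = 0.000919) in MEC2 and -0.97 (SE 0.21, adjusted p = 0.00291) in PCL12, and MEC2 and PCL12 differed by -0.12 (adjusted p = 0.952).

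STAT5A had another order, with MEC2 below both other lines. Its unstimulated means were 299.9 ± 135 CPM (SD, n = 3) in HG3, 232 ± 117 CPM (SD, n = 3) in PCL12 and 73.1 ± 7.18 CPM (SD, n = 3) in MEC2. The log2 difference was -2.04 (SE 0.37, adjusted p = 0.000393) between MEC2 and HG3 and -1.66 (SE 0.36, adjusted p = 0.0107) between MEC2 and PCL12, the only one of the 9 genes called there, beside 2.05% of all genes. PCL12 and HG3 did not differ beyond their spread (-0.37, adjusted p = 0.582). The MEC2 to PCL12 call was lost without unstimulated MEC2 replicate 2 (adjusted p = 0.0811) or PCL12 replicate 2 (adjusted p = 0.0986), and without PCL12 replicates 2 and 3 the difference was -1.55 (adjusted p = 0.0444).

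In PCL12 against HG3, 2 of the 9 genes were called, STAT5B and SOCS1, beside 9.44% of all genes. SOCS3, at 3.46, 8.56 and 2.79 CPM in unstimulated PCL12, was below every HG3 library, with a log2 difference of -2.60 (SE 0.79, adjusted p = 0.0518). It passed the threshold in DESeq2 (adjusted p = 0.000710) and limma-voom (adjusted p = 0.0155). Without PCL12 replicates 2 and 3, which leaves 1 unstimulated PCL12 library whose spread was taken to be that of the other groups, no gene of the group was called, with differences of -1.10 (adjusted p = 0.116) for STAT5B, -1.42 (adjusted p = 0.109) for SOCS1 and -3.09 (adjusted p = 0.311) for SOCS3.

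CISH also had its highest levels in HG3, at 3.44 ± 2.22 CPM (SD, n = 3) against 0.986 ± 0.660 CPM (SD, n = 3) in MEC2 and 1.23 ± 0.325 CPM (SD, n = 3) in PCL12. All 6 HG3 libraries were above all libraries of the other lines, stimulated or not, as for STAT5B, SOCS1 and SOCS3. The share of all genes separated in this way was not counted. The log2 differences of -1.78 (SE 0.69, adjusted p = 0.115) and -1.48 (SE 0.69, adjusted p = 0.205) did not pass the threshold, except that of MEC2 in DESeq2 (adjusted p = 0.0219), and that of PCL12 was -1.14 (adjusted p = 0.740) without PCL12 replicates 2 and 3. The highest of the 3 unstimulated HG3 libraries was replicate 2, rich in mitochondrial counts, and without the 2 libraries of that kind the differences were -1.13 (adjusted p = 0.364) for MEC2 and -0.82 (adjusted p = 0.526) for PCL12. STAT4 was lower in MEC2 than in PCL12 in every unstimulated library, with means of 4.11 ± 2.25 CPM (SD, n = 3) and 12.3 ± 5.62 CPM (SD, n = 3) and a log2 difference of -1.58 (SE 0.63, adjusted p = 0.307), or -1.28 (adjusted p = 0.691) without PCL12 replicates 2 and 3.

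STAT2, STAT3 and STAT6 overlapped between all pairs of unstimulated lines. Their log2 differences were 0.34, -0.03 and -0.12 for MEC2 against HG3 and 0.46, -0.35 and -0.05 for PCL12 against HG3. Single HG3 libraries moved those of STAT2 and STAT3. The STAT2 difference was -0.10 for MEC2 and 0.04 for PCL12 without unstimulated HG3 replicate 2, and 1.01 (adjusted p = 0.132) and 1.14 (adjusted p = 0.0871) without replicate 1. The STAT3 difference was -0.36 for MEC2 and -0.66 (adjusted p = 0.0916) for PCL12 without HG3 replicate 2, and 0.37 and 0.06 without replicate 3. The 95% confidence interval of the MEC2 to HG3 difference ran from -0.61 to 0.37 for STAT6 and from -0.56 to 1.24 for STAT2. Unstimulated libraries were without overlap for 5 of the 9 genes between MEC2 and HG3, 4 between PCL12 and HG3 and 3 between MEC2 and PCL12, beside 22.2%, 21.1% and 17.3% of all tested genes.

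**Figure D3:**
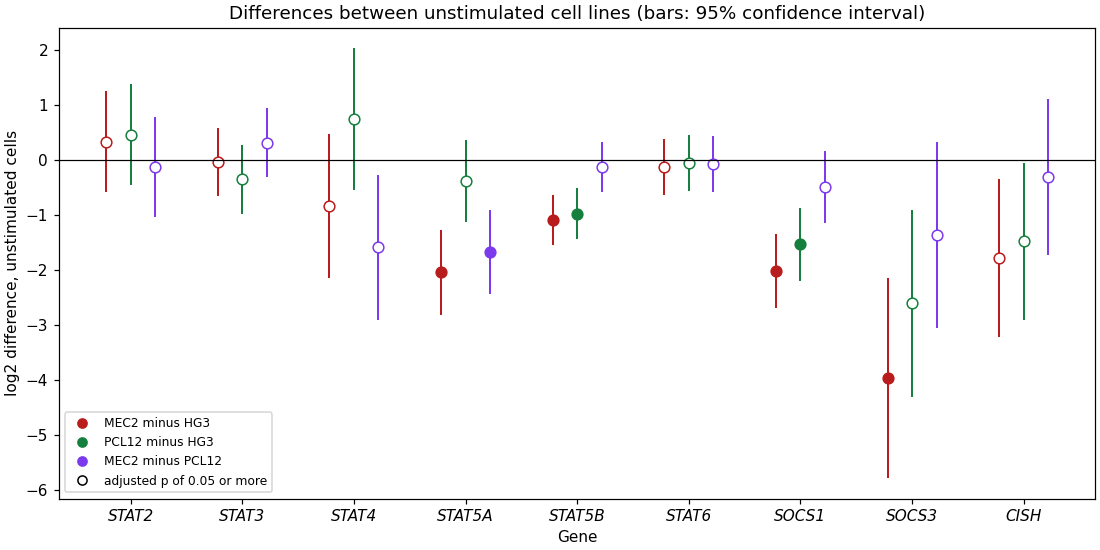
Log2 difference between unstimulated lines for each gene, from the edgeR fit, with 95% confidence intervals; red is MEC2 minus HG3, green PCL12 minus HG3 and violet MEC2 minus PCL12, and filled points have an adjusted p under 0.05. The filled points are STAT5A, STAT5B, SOCS1 and SOCS3 in red, STAT5B and SOCS1 in green and STAT5A in violet, all below 0.

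The rest of the pathway was read from 6 lists. None of the 4 JAK kinases (JAK1, JAK2, JAK3 and TYK2) and none of the 10 phosphatases and PIAS inhibitors met the DEG definition after CpG in any line, where 0.496% of all genes in HG3, 0.251% in MEC2 and 0.116% in PCL12 did, so that 0 calls say little for lists of this size. The list medians were 0.15, 0.48 and 0.23 (kinases) and 0.09, -0.09 and -0.02 (inhibitors) in HG3, MEC2 and PCL12. The other 4 lists held calls in MEC2 alone. These were IL2RA, SOCS6 and CSF3, all higher after CpG and all with an adjusted p of 1. For the difference in CpG response between lines, 0 genes of these lists had an adjusted p under 0.05 by edgeR. At most 0.00314% of all genes did in such a comparison. The paper, using limma, reports IL6, a cytokine of these lists, as induced in MEC2 and PCL12. IL6 was not among the calls here.

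IL2RA, the high-affinity chain of the IL-2 receptor and a STAT5 target, was called as 1 of 23 tested receptor chains and 1 of 24 STAT targets, beside 0.251% of all genes in MEC2. It was at 2.35, 2.57 and 1.37 CPM in unstimulated and 7.51, 6.01 and 4.50 CPM in stimulated MEC2, without overlap (Log2FC 1.53, SE 0.43, adjusted p = 1). With the pairing by replicate its adjusted p was 4.74e-05 in edgeR and 0.5995 in limma-voom. In limma-voom (1.59), and in edgeR without unstimulated replicate 3 (1.29), it did not meet the DEG definition. In PCL12 IL2RA was at 54.2, 40.5 and 30.9 CPM without and 81.1, 57.8 and 35.2 CPM with CpG, higher in each pair. In HG3 it was at 3.52, 3.56 and 11.3 CPM without and 4.08, 7.11 and 9.525 CPM with CpG. The groups overlapped in both of these lines, and the definition was met in neither.

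SOCS6, another member of the SOCS family, had 1, 12 and 0 counts in unstimulated and 33, 14 and 13 counts in stimulated MEC2, and in CPM stimulated replicate 2 was below unstimulated replicate 2 (Log2FC 2.06, SE 0.73, adjusted p = 1). It was the only one of the 6 other STAT and SOCS genes called, beside 0.251% of all genes. With the pairing by replicate the Log2FC was 2.29 (adjusted p = 0.0171) in edgeR and 2.88 (adjusted p = 0.998) in limma-voom, the latter outside the DEG definition. The definition was also missed in other settings, among them filterByExpr (2.04), the fit of MEC2 alone (1.93), and without stimulated replicate 1 (1.61) or 3 (2.08) or unstimulated replicate 1 (1.48) or 3 (1.41), while without unstimulated replicate 2 the value was 5.20. CSF3, the cytokine G-CSF, had 0 counts in all 3 unstimulated MEC2 libraries and 6, 8 and 3 in the stimulated ones, at least 1.77-fold higher against a floor of 3 counts per library (adjusted p = 1). It was the only call among 15 cytokines tested of 17, again beside 0.251% of all genes, and its adjusted p with the pairing was 0.624 in edgeR. In the fit of MEC2 alone, and without stimulated MEC2 replicate 2 or any 1 of the unstimulated replicates, CSF3 did not meet the definition. In PCL12 CSF3 had 0, 3 and 1 counts without and 16, 13 and 7 with CpG. Its CPM there did not overlap, as for 4.55% of all genes in PCL12. In HG3 it had 29, 1 and 58 counts without and 5, 15 and 54 with CpG. The SOCS6 groups overlapped in HG3 and PCL12, and neither gene met the definition in those lines.

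The list medians of the log2 values in HG3, MEC2 and PCL12 were 0.24, 0.19 and 0.12 for the other STAT and SOCS genes, 0.07, 0.64 and 0.52 for the cytokines, 0.06, 0.09 and 0.09 for the receptor chains and 0.05, 0.35 and 0.24 for the STAT targets, beside 0, 0 and 0.02 for all genes. With cytokines at 0 counts in a whole group set to their bound, and left out where both groups were at or under the floor of 3 counts, the cytokine median in MEC2 was 0.37.

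**Figure D4:**
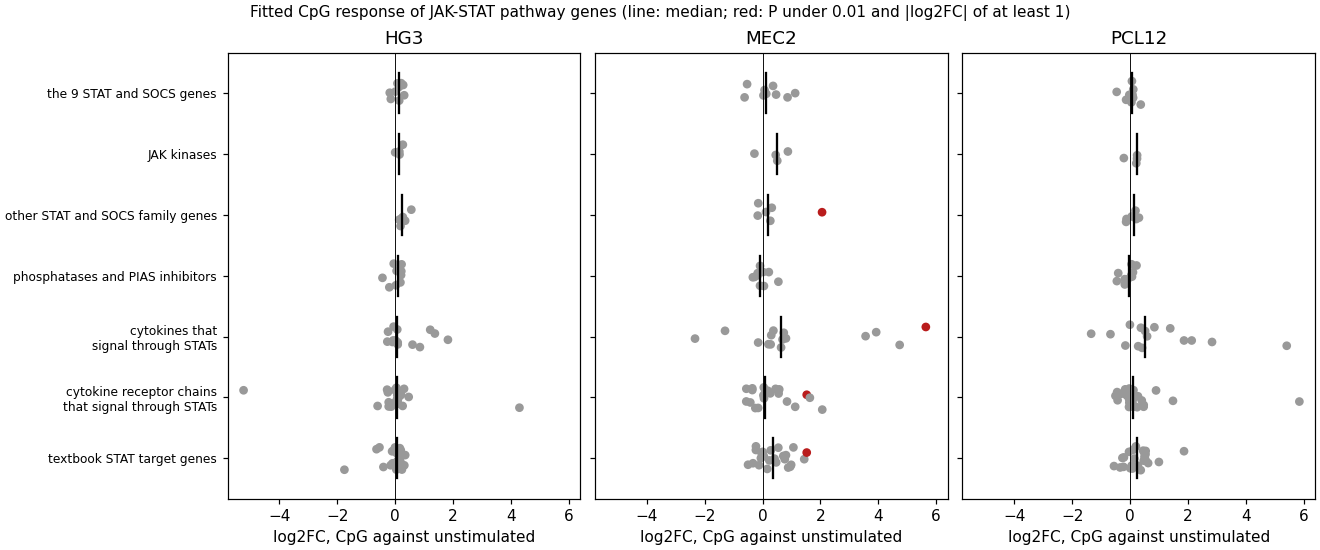
Fitted Log2FC after CpG of the 9 STAT and SOCS genes and of the genes of the 6 pathway lists, 1 point a gene and 1 panel a line; the vertical bar is the median of the list and red points have P under 0.01 with |Log2FC| ≥ 1. Red points occur in the MEC2 panel alone and are SOCS6, CSF3 and IL2RA, the last drawn in both lists that hold it.

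Between unstimulated lines, an adjusted p under 0.05 in at least 1 of the 3 comparisons was found for 1 of 4 JAK kinases, 3 of 6 other STAT and SOCS genes, 2 of 10 phosphatases and PIAS inhibitors, 4 of 15 cytokines, 11 of 23 receptor chains and 14 of 24 STAT targets, beside 13.5% of all genes tested. Among the receptor chains, CSF2RB, the common chain for IL-3, IL-5 and GM-CSF that signals through STAT5, was at 0.841 ± 0.155 CPM (SD, n = 3) in unstimulated HG3, 23.1 ± 2.43 CPM (SD, n = 3) in MEC2 and 42.8 ± 10.1 CPM (SD, n = 3) in PCL12. It was higher than in HG3 by 4.76 (adjusted p = 3.66e-09) in MEC2 and by 5.64 (adjusted p = 3.12e-10) in PCL12 on the log2 scale. IFNGR1, the ligand-binding chain of the interferon-γ receptor, was lower in MEC2 (-1.29, adjusted p = 0.000429) and PCL12 (-2.15, adjusted p = 6.60e-07). Without PCL12 replicates 2 and 3 the PCL12 differences were 5.57 (adjusted p = 2.39e-08) for CSF2RB and -2.09 (adjusted p = 0.00293) for IFNGR1.

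IL6ST, which encodes gp130, and IL6R, its partner for IL-6, were looked at after their values were seen, since SOCS3 acts on gp130. IL6ST was at 303 ± 206 CPM (SD, n = 3) in unstimulated HG3, 84.3 ± 28.1 CPM (SD, n = 3) in MEC2 and 64.8 ± 21.1 CPM (SD, n = 3) in PCL12, and was lower than in HG3 by log2 differences of -1.85 (adjusted p = 0.0413) and -2.22 (adjusted p = 0.0156). The call for MEC2 was lost without unstimulated HG3 replicate 3 (-1.13, adjusted p = 0.189), without unstimulated MEC2 replicate 1 (-2.09, adjusted p = 0.0536), 2 (-1.81, adjusted p = 0.125) or 3 (-1.64, adjusted p = 0.164), and without the libraries rich in mitochondrial counts (-2.12, adjusted p = 0.0552). The call for PCL12 was lost without PCL12 replicates 2 and 3 (-2.89, adjusted p = 0.109). IL6R had 15 to 1189 counts in the unstimulated HG3 libraries and 0 to 20 in those of MEC2 (log2 difference -5.91, SE 1.26, adjusted p = 0.00669).

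Of the targets, GBP1, an interferon-induced GTPase, was higher in MEC2 than in HG3 by 3.56 (adjusted p = 1.69e-07) on the log2 scale, and in PCL12 by 3.22 (adjusted p = 6.54e-07), or 2.87 (adjusted p = 0.000162) without PCL12 replicates 2 and 3. IL10 had no count in any HG3 library. It was at least 7.52-fold higher in unstimulated MEC2 against a floor of 3 counts per library (adjusted p = 0.0122). In unstimulated PCL12 it had 0, 20 and 3 counts in replicates 1, 2 and 3, so its adjusted p of 0.0467 against HG3 rests on replicates 2 and 3, and without them no count was left in unstimulated cells of either line. EBI3, a subunit of IL-27 and IL-35, was lower than in HG3 in MEC2 (-1.35, adjusted p = 0.00416) and in PCL12 (-1.03, adjusted p = 0.0312), the latter -1.10 (adjusted p = 0.191) without PCL12 replicates 2 and 3.

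JAK1, a kinase bound to many cytokine receptors, was higher in unstimulated MEC2 than in HG3 by 0.99 (adjusted p = 0.0347) and PTPRC, the CD45 phosphatase, by 1.07 (adjusted p = 0.0285) on the log2 scale. Without unstimulated HG3 replicate 2, rich in mitochondrial counts, these were 0.68 (adjusted p = 0.120) and 0.70 (adjusted p = 0.0799), and without both libraries of that kind 0.66 (adjusted p = 0.0977) and 0.69 (adjusted p = 0.0379). The JAK1 call was also lost without unstimulated HG3 replicate 1 (adjusted p = 0.0832) or MEC2 replicate 1 (adjusted p = 0.0995) or 2 (adjusted p = 0.0936), and the PTPRC call without unstimulated MEC2 replicate 1 (adjusted p = 0.0527), 2 (adjusted p = 0.0638) or 3 (adjusted p = 0.0708). SOCS2 was higher in PCL12 than in HG3 by 2.83 (adjusted p = 0.0320). Without PCL12 replicates 2 and 3 the difference was as large (2.91) but not called (adjusted p = 0.169), and the call was also lost without unstimulated HG3 replicate 1 (adjusted p = 0.106) or PCL12 replicate 1 (adjusted p = 0.0620) or 2 (adjusted p = 0.0941). PIAS2, an inhibitor that acts on STATs in the nucleus, was lower in PCL12 by a log2 difference of -1.54 (adjusted p = 0.00129), and -2.47 (adjusted p = 0.000748) without these replicates. SOCS6 was lower in MEC2 than in HG3, -6.44 on the log2 scale (adjusted p = 1.44e-06), and in PCL12, -2.06 (adjusted p = 0.0254), or -1.91 (adjusted p = 0.436) without PCL12 replicates 2 and 3.

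Over the 18 libraries, the genes with a profile most like that of each inhibitor were sought among about 10658 genes averaging 5 CPM or more, by the root mean square difference of centred log2(CPM + 0.5). For SOCS1, whose own SD was 0.84, they were RHOV (0.28), TNFSF9 (0.32) and EMP3 (0.32). For SOCS3 (SD 1.60) they were ACKR3 (0.55), IRS2 (0.57) and ATP1B1 (0.60), and for CISH (SD 0.77) PHPT1 (0.32), DEAF1 (0.38) and HIST1H2BD (0.39). The 18 libraries share 3 lines, and these distances are a description only.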

How the data were processed

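RNA of 18 libraries (HG3, MEC2 and PCL12, CpG-stimulated or unstimulated, 3 of each) was sequenced by the authors, and they deposited raw counts per gene symbol without normalization. The submitters' processing notes name FastQC, MultiQC, Trimmomatic, STAR, featureCounts and hg38. The annotation, the strand setting and the handling of duplicates are not given in the sources used here. On the kits the sources differ: Qiagen and a stranded reverse protocol in the paper, Promega ReliaPrep and Lexogen stranded QuantSeq, which is read from 3′ ends, in the labels. Levels are therefore not compared between genes.

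The 9 genes, the pathway lists, the rule for named genes and the alternatives were chosen with earlier results of these data known. Named genes of the pathway lists are those called after CpG and at most 2 with the smallest P value per list among those called only between unstimulated lines. Some genes of these lists that the rule names are not reported here. Counts were scaled with TMM factors (0.913 to 1.11) and fitted with edgeR 4.0.16 in R 4.3.3 (robust quasi-likelihood, 1 mean per group, 12 residual degrees of freedom) for genes with at least 10 summed counts (31872 of 42248 with at least 1). P values were adjusted by Benjamini-Hochberg over all tested genes. CpG effects within a line were called by the DEG definition of the methods of the paper, and the other comparisons by an adjusted p under 0.05. The code was tested on simulated counts. Alternatives were DESeq2 1.42.0, limma-voom (limma 3.58.1), a block for the replicate, RLE scaling, library totals, 3 other filters on low counts, fits of the compared lines alone, each library left out, and PCL12 replicates 2 and 3 left out. Leaving out the 2 libraries rich in mitochondrial counts was chosen after seeing the data. Where copies made by PCR were not removed, the depth overstates the precision.

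The description of the series gives each replicate 1 stimulated and 1 unstimulated sample, so paired samples share a number in each line. With group means removed, the log2 CPM of paired libraries correlated by 0.0928, 0.0579 and 0.203 in HG3 (replicates 1, 2 and 3), 0.0285, -0.0785 and 0.327 in MEC2 and 0.213, 0.149 and 0.216 in PCL12. No 2 replicates of a group were the same library by their counts (chi-square per gene of at least 18.8 in all 18 pairs).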

Additional observations from a re-analysis of the deposited data

How the results depend on the processing

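Over 9 genes in 10 comparisons, 1782 values under alternatives were computed: 1762 kept their side of the threshold, 16 passed it where the reported value did not, 4 lost it, and 0 of the called values changed direction, while 163 values that were not called changed sign. The count of the 9 genes called after CpG in MEC2, 0 as reported, was 1 with the replicate block in edgeR (SOCS3), 1 without a filter on low counts (SOCS3, Log2FC 1.15), and 0 to 1 with each library left out, the 1 being STAT5A without stimulated MEC2 replicate 3 (Log2FC 1.08). In the average over lines it was 0 as reported and 1 with the replicate block in edgeR (STAT5A). For PCL12 against HG3 in unstimulated cells it fell from 2 to 0 without PCL12 replicates 2 and 3, it was 2 to 3 with each library left out, and it was 3 in DESeq2, limma-voom, RLE scaling, the 3 other filters on low counts and the fit of the compared lines alone, SOCS3 being added in each case of 3. For MEC2 against PCL12 it was 1 as reported, 3 without a filter (STAT4 and SOCS3 added), and 0 to 1 with each library left out. The pairing changed no other call among the 9 genes, and for differences between unstimulated lines it could not be fitted, since each replicate belongs to 1 line. The fit of compared lines alone was not run for the average over lines, which holds all of them. The 4 calls of MEC2 against HG3 held with each library left out, with an adjusted p of at most 0.00451 for STAT5A, 0.0120 for STAT5B, 0.00104 for SOCS1 and 0.0281 for SOCS3. SOCS3 after CpG in MEC2 ran from 0.65 without stimulated replicate 1 to 1.55 without stimulated replicate 3, and in HG3 from -0.61 without stimulated replicate 3 to 1.02 without unstimulated replicate 3. With the block, all genes called after CpG by the DEG definition were 233 in place of 158 in HG3, 177 in place of 80 in MEC2 and 77 in place of 37 in PCL12, and in the average over lines 177 in place of 3 passed an adjusted p of 0.05. The causes of these changes were not tested. The 95% confidence interval of the CpG effect in MEC2 ran from -0.54 to 2.79 for SOCS3, -1.92 to 0.67 for STAT4 and -1.96 to 0.89 for CISH.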
